A study of Mus musculus with 20 samples.

Results

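The 10 genes described here encode the ligand FGF4 (Fgf4), the receptors FGFR1 and FGFR2 (Fgfr1, Fgfr2), and targets and brakes of ERK signalling (Spry2, Spry4, Spred1, Dusp4, Dusp6, Etv4, Etv5). They were taken by symbol from a count table of 25208 genes, and all 10 passed the low-count filter that left 16603 genes for testing. They were followed in 20 libraries of mouse preimplantation embryos, cultured in KSOM medium from the zygote and sequenced with Smart-seq2, a full-length method for very small amounts of RNA. The libraries form 10 groups of 2. Control embryos (genotype WT) and P300 siRNA embryos (genotype P300 knockdown) were sampled at 4 stages, namely late 2-cell, 4-cell and both early and late 8-cell. For late 8-cell embryos only, the genotype labels also name an I1394G rescue and a NaCr rescue of the P300 knockdown, and both rescue groups carry the siRNA. The sources used here do not spell out I1394G or NaCr, nor give the strain, the siRNA sequence or how many embryos went into a library. P300 is the histone acyltransferase encoded by Ep300. The series is titled as a study of P300, histone crotonylation and embryo development, and its design text compares the knockdown with controls by stage and with both rescues at the late 8-cell stage.

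FGF ligands bind receptor tyrosine kinases with heparan sulphate as a cofactor, and the receptors signal through RAS, RAF and MEK to the kinase ERK. ERK raises transcription of the ETS factors Etv4 and Etv5 and of its own brakes, the Sprouty, Spred and DUSP proteins, so that levels of these genes are widely used as a readout of the pathway. In the mouse blastocyst, FGF4 from epiblast precursors acts through FGFR1 and FGFR2 to specify primitive endoderm. All libraries here precede the blastocyst.

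Levels are counts per M (mega) of the library total after TMM scaling (CPM). A call means an adjusted p under 0.05 in edgeR's quasi-likelihood test over all 16603 genes, and a fold change is given on the log2 scale with its standard error (SE). Nothing in the labels ties the libraries of a group to separate cultures, so the p-values measure the spread between these libraries, which may be technical. In whole-embryo RNA, fewer cells of a type and less RNA per cell cannot be told apart.

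Library totals ranged from 3.20 to 24.8 M counts, and P300 siRNA late 8-cell replicate 1 was the shallowest. All 8 embryo markers were present in every library. Of the 10 cumulus cell markers, Fshr and Lhcgr were at 0 in 17 of 20 libraries, whereas Star was at 0 in 1 and Amhr2 in 0. Amhr2 was the only one above 10 CPM, at up to 70.5 CPM, and Tnfaip6 and Cyp11a1 reached 9.39 and 6.10 CPM. Carry-over of such cells was not tested. The summed embryo markers were lower under the siRNA at the 4-cell stage (5450 to 6689 against 9439 to 10811 CPM), the early 8-cell stage (5174 to 5210.0 against 9906 to 11529.5 CPM) and the late 8-cell stage (3718 to 4228 against 8258 to 8739 CPM). Dppa3 reached 10257 CPM and no other of the 8 markers exceeded 806 CPM in any library, so these sums follow mainly Dppa3. The part of the embryo markers in the results below was not tested. Ep300 lay between 41.5 and 88.4 CPM in the 6 controls of the first 3 stages and between 11.4 and 29.9 CPM in the siRNA libraries, with adjusted p = 0.00128 and 0.000819 at the 4-cell and early 8-cell stages and 0.318 at the late 2-cell stage. Late 8-cell Ep300 values in controls (22.0 and 15.2 CPM) overlapped those under the siRNA (16.2 and 13.2 CPM), so Ep300 does not check the label there.

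A single library stood apart. For control early 8-cell replicate 2 the deposited counts and the deposited FPKM values disagreed: after centring each gene over libraries, the correlation of the columns was 0.260, against 0.982 to 0.997 in the other 19 libraries. Its counts were closest to those of control early 8-cell replicate 1 (r = 0.781), whereas its FPKM column was closest to the counts of P300 siRNA early 8-cell replicate 2 (r = 0.633). The members show the gap plainly. For Dusp6 this library held 672 counts, or 60.3 CPM, but 0.49 FPKM, while replicate 1 had 84.95 CPM and 26.27 FPKM. For Fgfr2 it had 81.5 CPM and 1.78 FPKM, against 86.1 CPM and 13.94 FPKM in replicate 1. Every test below is on the counts, and FPKM serves only to compare levels between genes and in an alternative test. Fold changes at the early 8-cell stage are given with and without this library, or with their range over the libraries left out.

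**Figure D1:**
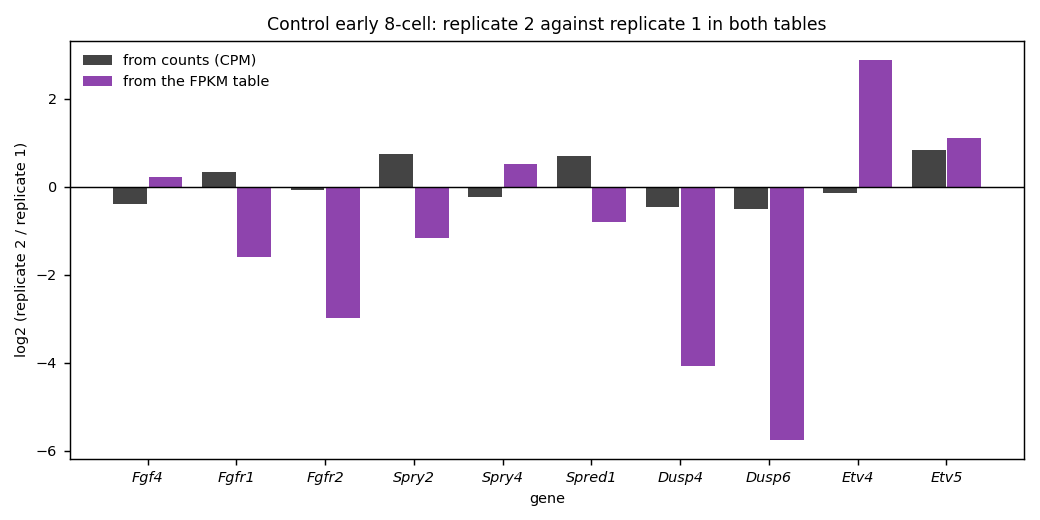
Replicate 2 against replicate 1 of the control early 8-cell group for each of the 10 genes (horizontal axis), as the log2 ratio of CPM from the count table (grey bars) and of the FPKM table (purple bars). The count ratios stay within a factor of 1.78 in either direction, whereas the FPKM ratios reach 0.0187 for Dusp6 and 7.43 for Etv4.

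The promoters of 4 members are printed because of their values at the 4-cell and early 8-cell stages: Fgf4 was called higher under the siRNA there, and Fgfr2, Spry2 and Dusp6 had the lowest fitted fold changes of the 10 genes. Each run is the 250 bases before the annotated start, 5′ to 3′ on the gene's strand, from RefSeq on build GRCm38.p6; the expression files were made on mm9, so the coordinates apply to these runs only. They are chr7:144861136-144861385 for Fgf4 (plus strand), chr7:130266809-130267058 for Fgfr2 (minus strand), chr14:105896820-105897069 for Spry2 (minus strand) and chr10:99262981-99263230 for Dusp6 (plus strand). Capitals mark the match to a searched motif.
Fgf4: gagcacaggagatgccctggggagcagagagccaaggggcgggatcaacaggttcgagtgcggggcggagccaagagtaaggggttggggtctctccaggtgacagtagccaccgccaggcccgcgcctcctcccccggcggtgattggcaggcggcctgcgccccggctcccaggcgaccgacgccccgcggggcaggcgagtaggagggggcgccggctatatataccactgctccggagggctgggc
Fgfr2: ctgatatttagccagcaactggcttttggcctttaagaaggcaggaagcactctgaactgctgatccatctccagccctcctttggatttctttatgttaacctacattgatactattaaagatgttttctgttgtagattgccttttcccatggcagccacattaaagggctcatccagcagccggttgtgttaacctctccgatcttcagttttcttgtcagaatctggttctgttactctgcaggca
Spry2: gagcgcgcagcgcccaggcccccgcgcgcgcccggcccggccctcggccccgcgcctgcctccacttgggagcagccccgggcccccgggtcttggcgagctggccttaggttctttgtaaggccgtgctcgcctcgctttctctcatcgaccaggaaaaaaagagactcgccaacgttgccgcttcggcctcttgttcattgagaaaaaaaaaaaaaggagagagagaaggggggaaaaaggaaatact
Dusp6: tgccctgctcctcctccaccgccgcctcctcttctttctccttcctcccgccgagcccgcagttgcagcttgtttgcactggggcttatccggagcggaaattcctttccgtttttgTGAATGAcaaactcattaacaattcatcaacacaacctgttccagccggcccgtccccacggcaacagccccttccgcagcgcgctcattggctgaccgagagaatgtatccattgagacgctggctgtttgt

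The motifs of 3 factors linked to ERK signalling were searched on both strands: CCGGAAG (ETS), TGAATGA (CIC, a repressor that ERK signalling inactivates) and TGANTCA (AP-1). Among 7 promoters of 6 members in the table (Fgf4, Fgfr2, Spry2, Spred1, Dusp6, Etv5), a single match was found, TGAATGA in Dusp6, beginning 133 bases before the start. Of all 32851 promoters of the same length, 3.14% held TGAATGA, 6.91% held CCGGAAG and 6.75% held TGANTCA. The promoters also differed in base composition, from 44.0% G and C in Fgfr2 to 56.4% in Dusp6, 62.4% in Spry2 and 71.2% in Fgf4.

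In control embryos the members followed separate courses, shown in the plot of levels in every library. Per unit of transcript length, Spry4 had the highest level of the 10 genes at the late 2-cell stage (396 ± 7.50 FPKM, SD, n = 2), and Spry2 had the highest at the 4-cell stage (184 ± 23.0 FPKM) and the late 8-cell stage (30.9 ± 2.60 FPKM). Etv4 had the lowest mean at the late 2-cell and 4-cell stages and Spred1 at the late 8-cell stage (0.77 ± 0.156 FPKM). At the late 8-cell stage Etv4 held 2.30 and 0.22 FPKM, so replicate 2 was below both Spred1 libraries (0.88 and 0.66 FPKM). From the late 2-cell to the 4-cell stage 2 members rose and 1 fell, where 61.2% of all genes tested were called (27% higher, 34.2% lower). The late 2-cell libraries are numbered in the series apart from all others. TMM factors were 1.19 and 1.18 in late 2-cell controls and 0.86 and 0.93 in 4-cell controls. Stage and any difference in handling cannot be told apart in this step. From the 4-cell to the early 8-cell stage no member was called by edgeR, where 1.13% of all genes were (0.62% higher, 0.506% lower), and DESeq2 called 0. An unadjusted p under 0.05 was found for 3 members. The share of all genes under that threshold was not counted, so the 3 cannot be set beside 1.13%. From the early to the late 8-cell stage 1 member rose and 3 fell, where 26.2% of all genes were called (15% higher, 11.2% lower). The falls of Spry2, Spred1 and Dusp6 in that step were called without control early 8-cell replicate 2 as well (-1.77, -2.11 and -4.15).

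**Figure D2:**
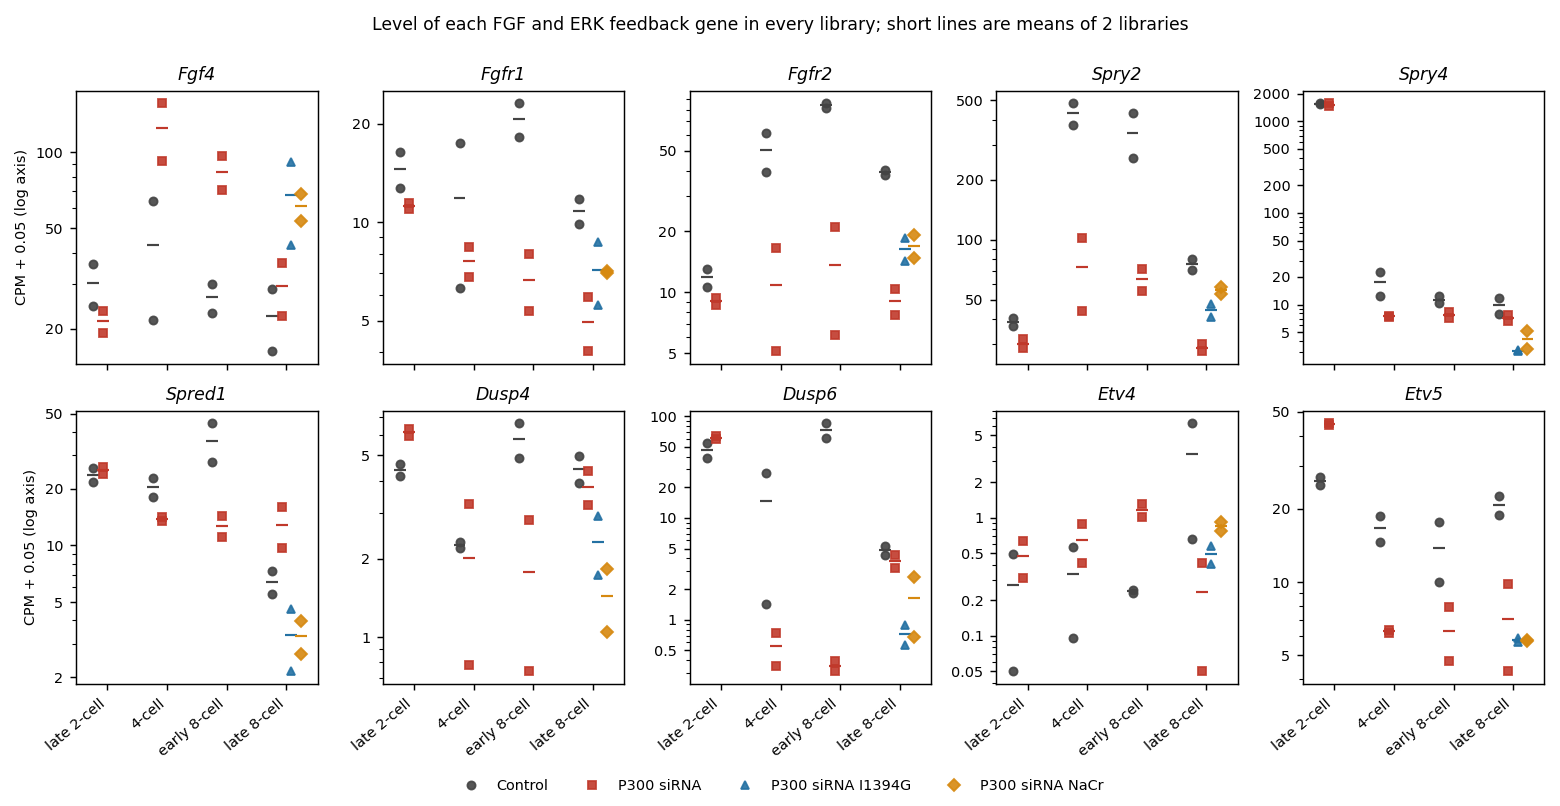
Level of each gene in every library, as CPM + 0.05 on a log axis, at the 4 stages on the horizontal axis. Grey circles are control, red squares P300 siRNA, blue triangles I1394G rescue and orange diamonds NaCr rescue libraries, and short lines are means of 2 libraries. The 4 late 2-cell libraries of Spry4 lie between 1458.5 and 1584 CPM and the 16 later ones between 3.04 and 22.6 CPM.

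Fgf4 encodes the ligand that acts on primitive endoderm precursors. Control libraries held 24.5 and 35.9 CPM at the late 2-cell stage, 21.6 and 64.0 at the 4-cell, 30.1 and 23.1 at the early 8-cell and 28.6 and 16.2 at the late 8-cell stage. Under the siRNA the values were 19.3 and 23.5, then 156.9 and 92.6, then 70.8 and 96.4, and at the late 8-cell stage 36.4 and 22.3 CPM. The siRNA libraries were thus above both controls at the 4-cell and early 8-cell stages and overlapped them at the late 8-cell stage. Fgf4 rose by 1.53 (SE 0.456, adjusted p = 0.0312) at the 4-cell stage and by 1.65 (SE 0.462, adjusted p = 0.0198) at the early 8-cell stage. The 4-cell call was lost without control replicate 1 (log2 fold change 0.96) and without siRNA replicate 1 (1.10), and the early 8-cell call without control replicate 1 (1.85), control replicate 2 (1.47) and siRNA replicate 2 (1.41). The joint test of a difference in the siRNA effect between the 4 stages gave adjusted p = 0.0615 for Fgf4.

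Fgfr1 encodes a receptor through which FGF4 signals. Its control values were 12.6 and 16.3 CPM at the late 2-cell stage, 17.5 and 6.23 at the 4-cell, 18.1 and 23.1 at the early 8-cell and 11.8 and 9.82 at the late 8-cell stage. Under the siRNA they were 11.4 and 10.9, 8.37 and 6.76, 5.31 and 7.92, and 3.98 and 5.84 CPM. The groups overlapped at the 4-cell stage, where the control replicates themselves were far apart, and were separate at both 8-cell stages. Fgfr1 fell by 1.64 (SE 0.452, adjusted p = 0.0182) at the early 8-cell stage; without control replicate 2 the log2 fold change was -1.46 and the call was lost, as it was without siRNA replicate 1 (-1.38). Its late 8-cell log2 fold change was -1.09 with adjusted p = 0.0812.

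Fgfr2, a receptor that also acts in the trophectoderm lineage, rose in controls and stayed low under the siRNA. Control libraries held 10.6 and 13.1 CPM at the late 2-cell stage, 61.1 and 39.4 at the 4-cell, 86.1 and 81.5 at the early 8-cell and 38.1 and 40.3 at the late 8-cell stage. Under the siRNA they held 9.34 and 8.60, 16.5 and 5.06, 20.97 and 6.08, and 7.70 and 10.4 CPM. After the late 2-cell stage the lowest control library (38.1 CPM) was above the highest siRNA library (20.97 CPM). The rise in controls from the late 2-cell to the 4-cell stage was 2.09 (SE 0.493, adjusted p = 0.00140).

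Against control, Fgfr2 fell by 2.26 (SE 0.50, adjusted p = 0.00627) at the 4-cell stage, by 2.62 (SE 0.50, adjusted p = 0.00168) at the early 8-cell stage and by 2.09 (SE 0.501, adjusted p = 0.00525) at the late 8-cell stage. Leaving out single libraries kept both 8-cell calls, with fold changes of -3.78 to -2.0 and of -2.35 to -1.92; without siRNA 4-cell replicate 2 the 4-cell value was -1.61 and not called. At the late 2-cell stage the log2 fold change was -0.40 with adjusted p = 1. The joint test between stages gave adjusted p = 0.0972, so the smaller late 2-cell value was not shown to differ from the later ones.

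Spry2 encodes a Sprouty protein, an inhibitor that is induced by ERK and dampens signalling between the receptor and ERK. In controls it went from 40.3 and 36.9 CPM at the late 2-cell stage to 484 and 376 at the 4-cell and 257 and 429.5 at the early 8-cell stage, and then to 70.8 and 80.1 at the late 8-cell stage. Under the siRNA it held 28.6 and 31.8, 101.8 and 43.8, 71.5 and 55.1, and 30.0 and 27.6 CPM. The control peak at the 4-cell and early 8-cell stages was at least 257 CPM in every library, against at most 101.8 CPM in the siRNA libraries. In controls Spry2 rose by 3.48 (SE 0.330, adjusted p = 6.10e-08) from the late 2-cell to the 4-cell stage and fell by 2.19 (SE 0.312, adjusted p = 0.000104) from the early to the late 8-cell stage.

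Under the siRNA Spry2 fell by 2.57 (SE 0.317, adjusted p = 9.57e-05) at the 4-cell stage, by 2.44 (SE 0.316, adjusted p = 7.32e-05) at the early 8-cell stage and by 1.39 (SE 0.313, adjusted p = 0.00332) at the late 8-cell stage. Leaving out any 1 library of the groups compared kept these calls, with values of -3.30 to -2.08, -2.78 to -2.02 and -1.48 to -1.31. At the late 2-cell stage the value was -0.35 with adjusted p = 1. The siRNA effect on Spry2 differed between stages in the joint test (adjusted p = 0.00682).

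Spry4, another Sprouty gene, had the widest range of the members. At the late 2-cell stage controls held 1584 and 1548 CPM and siRNA libraries 1570.05 and 1458.5 CPM, which overlap. By the 4-cell stage controls were at 12.3 and 22.6 CPM, and Spry4 fell by 6.47 (SE 0.305, adjusted p = 2.93e-11). They held 12.2 and 10.4 at the early 8-cell and 11.7 and 7.78 CPM at the late 8-cell stage. The siRNA libraries had 7.25 and 7.50 at the 4-cell, 7.05 and 8.26 at the early 8-cell and 6.64 and 7.56 CPM at the late 8-cell stage. Against control Spry4 fell by 1.26 (SE 0.268, adjusted p = 0.00491) at the 4-cell stage; without control replicate 2, the higher control, the value was -0.73 and not called. At the early and late 8-cell stages the log2 fold changes were -0.57 and -0.43 with adjusted p = 0.167 and 0.256, and the early 8-cell value was -0.68 without control replicate 2.

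Spred1 encodes a membrane protein that inhibits RAS and RAF activation. Its control values were 21.5 and 25.6 CPM at the late 2-cell stage, 22.8 and 18.1 at the 4-cell, 27.5 and 44.4 at the early 8-cell and 7.29 and 5.46 at the late 8-cell stage. Under the siRNA they were 25.8 and 23.98, 14.1 and 13.3, 10.96 and 14.3, and 15.9 and 9.64 CPM. The siRNA libraries were therefore below both controls at the 4-cell and early 8-cell stages and above both at the late 8-cell stage. Controls fell by 2.49 (SE 0.404, adjusted p = 0.000273) from the early to the late 8-cell stage.

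Against control Spred1 fell by 1.51 (SE 0.393, adjusted p = 0.0136) at the early 8-cell stage. This call was lost without control replicate 2 (-1.12) and without siRNA replicate 1 (-1.32). Its late 8-cell log2 fold change was 0.97 with adjusted p = 0.0781. The siRNA effect on Spred1 differed between stages (joint test, adjusted p = 0.0252), with adjusted p from 0.0169 to 0.101 over the libraries left out. At the late 8-cell stage the summed 2-cell markers were also higher under the siRNA (45.9 to 164 CPM) than in controls (3.42 to 14.2 CPM), and their part in the Spred1 value was not tested.

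Dusp4 encodes a nuclear phosphatase that removes phosphate from ERK and related kinases, and was low throughout. Its 8 control libraries lay between 2.15 and 6.60 CPM and its 8 siRNA libraries between 0.689 and 6.27 CPM. With all libraries, no comparison between groups gave a call for Dusp4. Its lowest adjusted p against control was 0.107, at the early 8-cell stage, where controls held 6.60 and 4.84 and siRNA libraries 2.78 and 0.689 CPM (log2 fold change -1.69, SE 0.701). Without control replicate 2 the value was -1.90 and not called, and without siRNA replicate 1 it was -3.03 and called (adjusted p = 0.0497). Libraries after the late 2-cell stage held 6 to 105 Dusp4 counts.

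Dusp6 encodes a cytoplasmic phosphatase specific for ERK. Because its loss in knockdown embryos was known when the genes were chosen, its siRNA values at the 4-cell and early 8-cell stages are given without a test. Controls held 53.8 and 38.3 CPM at the late 2-cell stage, 27.6 and 1.37 at the 4-cell, 84.95 and 60.3 at the early 8-cell and 4.31 and 5.30 at the late 8-cell stage. Under the siRNA the late 2-cell values were 59.7 and 62.99 CPM, followed by 0.697 and 0.305 CPM at the 4-cell, 0.261 and 0.344 at the early 8-cell and 4.25 and 3.14 CPM at the late 8-cell stage. The siRNA libraries of the 4-cell and early 8-cell stages held 3 to 5 counts each, against 30 to 863 in the controls of those stages.

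In summed counts, Dusp6 was lower by a ratio of 243 at the early 8-cell stage (95% exact interval 111 to 662) and of 22.2 at the 4-cell stage (11.9 to 46.8); the intervals cover counting error only. The fitted log2 fold changes were -7.88 (SE 1.10) and -4.97 (SE 1.02). The 4-cell value rests on the control replicates, which differ from each other: without replicate 1 it was -1.62, and without replicate 2 it was -5.94. The early 8-cell value ranged from -8.11 to -7.63 over the libraries left out, control replicate 2 included, but in the FPKM table that library was at 0.49.

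At the other stages Dusp6 under the siRNA was not separated from control by the test, with log2 fold changes of 0.41 (adjusted p = 1) at the late 2-cell and -0.43 (adjusted p = 0.729) at the late 8-cell stage. In controls Dusp6 fell by 3.92 from the early to the late 8-cell stage (SE 0.812, adjusted p = 0.00191). The step from the late 2-cell to the 4-cell stage did not (log2 fold change -1.70, adjusted p = 0.0555), but was called at -5.00 without control 4-cell replicate 1.

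Etv4 and Etv5 encode ETS transcription factors that ERK signalling induces. Etv4 was at 0 to 12 counts in every library but control late 8-cell replicate 1, which held 122 counts, or 6.26 CPM, against 0.607 CPM in replicate 2. Controls rose by 4.13 from the early to the late 8-cell stage (SE 1.40, adjusted p = 0.0366). Without that library the value was 1.64 and not called, and without early 8-cell replicates 1 and 2 it was 4.17 and 4.06, also not called. The ratio of summed counts was 18.8 (95% exact interval 7.19 to 70.1, counting error only). Against control the siRNA late 8-cell value was -3.68 with adjusted p = 0.0504, on 0 and 9 counts. It ranged from -8.48 to -1.24 over the libraries left out, with adjusted p from 0.0411 to 0.633; the call came without control replicate 2 (-4.56), and the value was -1.24 without control replicate 1.

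Etv5 was the more abundant of the pair. Controls held 26.97 and 25.1 CPM at the late 2-cell stage, 14.6 and 18.6 at the 4-cell, 9.94 and 17.7 at the early 8-cell and 22.5 and 18.9 at the late 8-cell stage. Under the siRNA the values were 44.2 and 44.9, 6.14 and 6.34, 7.83 and 4.71, and 4.25 and 9.80 CPM. The siRNA libraries were above both controls at the late 2-cell stage and below both at every later stage. Etv5 fell by 1.41 (SE 0.388, adjusted p = 0.0214) at the 4-cell stage and by 1.48 (SE 0.386, adjusted p = 0.00881) at the late 8-cell stage, and its early 8-cell value was -1.13 with adjusted p = 0.0535.

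The 4-cell call of Etv5 was lost on leaving out any of 3 libraries (-1.22 without control replicate 2, -1.39 and -1.44 without siRNA replicates 1 and 2). The late 8-cell call was lost without control replicate 1 (-1.36) and without siRNA replicate 1 (-1.08), and was -2.29 without siRNA replicate 2. Without control replicate 1 of the early 8-cell stage the early 8-cell value was -1.55 and called, and without control replicate 2 it was -0.66. The late 2-cell value was 0.78 with adjusted p = 1. The siRNA effect on Etv5 differed between stages (joint test, adjusted p = 0.0176), with adjusted p from 0.00571 to 0.0952 over the libraries left out.

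Counted together, no member was called at the late 2-cell stage by edgeR, where 0.00602% of all genes were called. DESeq2 called 0, and 0 members had an unadjusted p under 0.05, a share not counted over all genes. At the 4-cell stage 1 member was called higher and 5 lower, where 15% of all genes were called (7.77% higher, 7.25% lower). The 5 include Dusp6, which gets no test there, and are 4 without it. The count of 6 was lower with each library left out. It was 1 when only the compared libraries were fitted and 2 with limma on log2(FPKM + 1). The share of all genes called in these runs is not given, so member counts from them cannot be set beside the shares here. At the early 8-cell stage it was again 1 higher and 5 lower, against 16.5% of all genes (8.21% higher, 8.3% lower), and again 4 lower without Dusp6. Without control replicate 2 the calls of Fgf4, Fgfr1 and Spred1 were lost and those of Fgfr2 and Spry2 were kept. The fit without it also called fewer of all genes. Over the libraries left out, the log2 fold change was 1.41 to 1.86 for Fgf4, -1.96 to -1.38 for Fgfr1 and -1.82 to -1.12 for Spred1. Dusp6 is left aside here, as it gets no test at this stage. Limma on log2(FPKM + 1) called 0 members. At the late 8-cell stage 3 were called lower, against 28% of all genes (13.6% higher, 14.3% lower). The members' median log2 fold change was 0.02, -0.95, -1.57 and -0.76 at the 4 stages, beside -0.04, 0.00, 0.04 and 0.06 over all genes tested. The genes were chosen with earlier results of these data known, so the counts describe the members and support nothing further. The joint test called 4 members, 3 without Dusp6, where 16.3% of all genes were called.

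**Figure D3:**
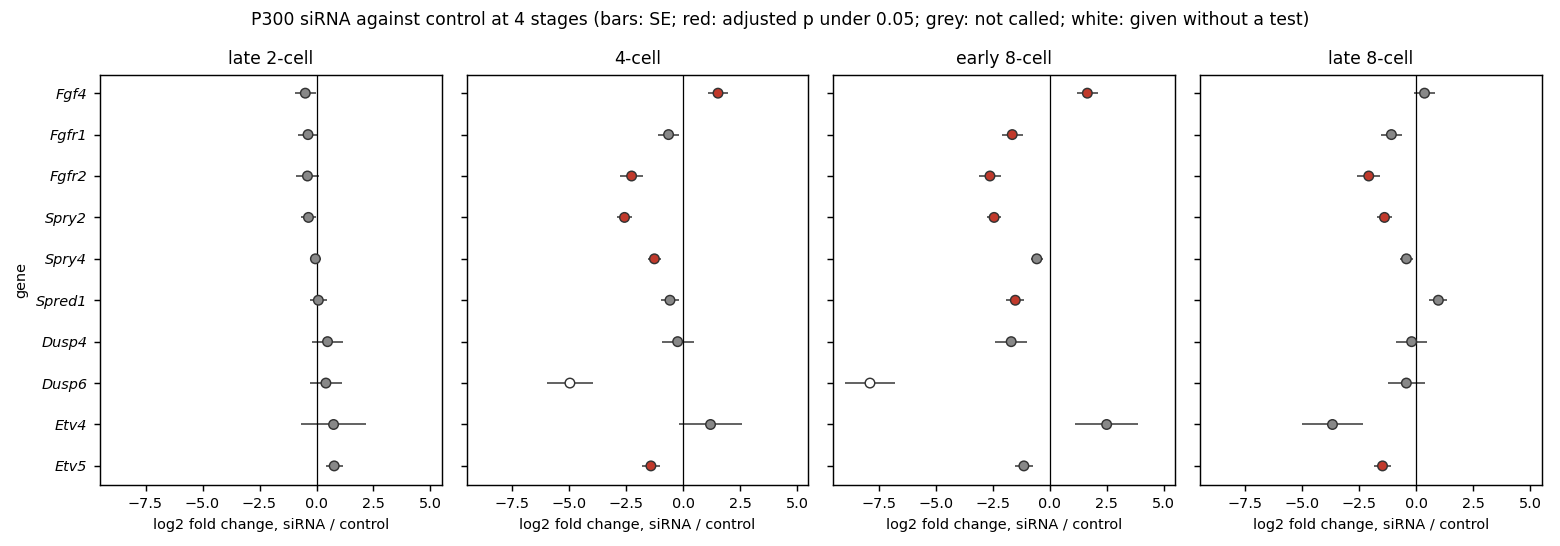
Log2 fold change of P300 siRNA against control for each gene (vertical axis) at the 4 stages, from 2 libraries per group; bars are SE, red points are called, grey points are not, and white points are the Dusp6 values given without a test. Fgf4 lies at 1.53 and 1.65 at the 4-cell and early 8-cell stages, where Fgfr2, Spry2 and Dusp6 lie between -7.88 and -2.26.

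At the late 8-cell stage the rescue groups allow each gene to be set beside both the knockdown and the control; these comparisons share libraries, so each is given by its own values. Against the siRNA alone, the I1394G rescue had 2 members lower (10.8% of all genes called, 6.19% higher and 4.58% lower) and the NaCr rescue 1 higher and 1 lower (15.3% of all genes called, 8.77% higher and 6.57% lower). Against control, each rescue had 2 members lower, where 3.17% of all genes were called for I1394G (1.99% higher, 1.18% lower) and 1.57% for NaCr (1.07% higher, 0.5% lower). Against the siRNA alone, the members' medians were 0.06 for I1394G and 0.05 for NaCr, beside -0.07 and -0.13 over all genes. Against control they were -1.10 for I1394G and -1.19 for NaCr, beside -0.01 and -0.05.

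Spry2, at 30.0 and 27.6 CPM under the siRNA, had 47.4 and 41.1 CPM with I1394G and 53.7 and 57.8 CPM with NaCr, while controls had 70.8 and 80.1 CPM. All 4 rescue libraries lay between the siRNA and the control libraries. With NaCr Spry2 rose by 0.96 over the siRNA (SE 0.312, adjusted p = 0.0456), a call that each library left out removed (0.90 to 1.02). With I1394G the log2 fold change was 0.62 with adjusted p = 0.204. Against control the values were -0.44 with NaCr (adjusted p = 0.591) and -0.77 with I1394G (adjusted p = 0.188).

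Fgfr2 took a similar place, with 14.3 and 18.4 CPM under I1394G and 19.1 and 14.7 CPM under NaCr, between 7.70 and 10.4 CPM under the siRNA and 38.1 and 40.3 CPM in control. None of the Fgfr2 differences passed the test: 0.83 and 0.87 over the siRNA (adjusted p = 0.297 and 0.242) and -1.26 and -1.21 against control (adjusted p = 0.168 and 0.260). Fgfr1 held 8.68 and 5.55 CPM under I1394G and 7.06 and 6.96 under NaCr, without a call.

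Spred1 was lower in both rescue groups than under the siRNA. It held 2.09 and 4.53 CPM with I1394G and 3.90 and 2.61 CPM with NaCr, against 15.9 and 9.64 CPM with the siRNA alone and 7.29 and 5.46 CPM in control. The rescue libraries lay below the control libraries as well. The fall from the siRNA was 1.91 with I1394G (SE 0.411, adjusted p = 0.00704) and 1.92 with NaCr (SE 0.42, adjusted p = 0.00524). Without siRNA replicate 1, the shallowest library, the values were -1.52, which was not called, and -1.53, which was; the calls were also lost without I1394G replicate 1 (-1.45) and without NaCr replicate 2 (-1.68). Against control the log2 fold changes were -0.94 and -0.95, with adjusted p = 0.235 and 0.314. The summed 2-cell markers were 24.9 to 42.2 CPM with I1394G and 7.59 to 84.9 CPM with NaCr; their part in these values was not tested.

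Spry4 and Etv5 were lower in both rescue groups than in control. Spry4 held 3.16 and 3.04 CPM with I1394G and 5.15 and 3.23 CPM with NaCr, below all 4 control and siRNA libraries. It fell by 1.65 with I1394G against control (SE 0.274, adjusted p = 0.00285; -1.32 and not called without control replicate 1) and by 1.18 with NaCr (SE 0.280, adjusted p = 0.0403). Against the siRNA it fell by 1.22 with I1394G (SE 0.289, adjusted p = 0.0121) and its value with NaCr was -0.75 with adjusted p = 0.0947. The NaCr call against control was lost with each library left out (-1.60 to -0.85), and the I1394G call against the siRNA without siRNA replicate 2 (-1.09) and without I1394G replicates 1 (-1.24) and 2 (-1.18).

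Etv5 held 5.61 and 5.85 CPM with I1394G and 5.68 and 5.72 CPM with NaCr, within the range of the siRNA libraries (4.25 and 9.80 CPM) and below the controls (22.5 and 18.9 CPM). Against control it fell by 1.85 with I1394G (SE 0.384, adjusted p = 0.0129) and by 1.86 with NaCr (SE 0.391, adjusted p = 0.0198). Each library left out removed these calls, with fold changes of -1.97 to -1.71 and -1.98 to -1.72. Against the siRNA the values were -0.37 and -0.38 with adjusted p = 0.582 and 0.546.

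Fgf4 was highest in the rescue groups at this stage. It held 91.9 and 43.1 CPM with I1394G and 68.5 and 53.6 CPM with NaCr, each above the highest siRNA library (36.4 CPM) and the highest control library (28.6 CPM). The log2 fold change of Fgf4 against control was 1.59 with I1394G (SE 0.458, adjusted p = 0.0681) and 1.45 with NaCr (SE 0.458, adjusted p = 0.129), neither called. Dusp6 held 0.510 and 0.836 CPM with I1394G and 2.57 and 0.622 CPM with NaCr, below the siRNA (4.25 and 3.14 CPM) and control libraries (4.31 and 5.30 CPM). Its I1394G log2 fold change was -2.80 against control (adjusted p = 0.0931) and -2.37 against the siRNA (adjusted p = 0.102), again without a call. Dusp4 lay between 0.995 and 2.86 CPM and Etv4 between 0.357 and 0.871 CPM in the 4 rescue libraries.

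**Figure D4:**
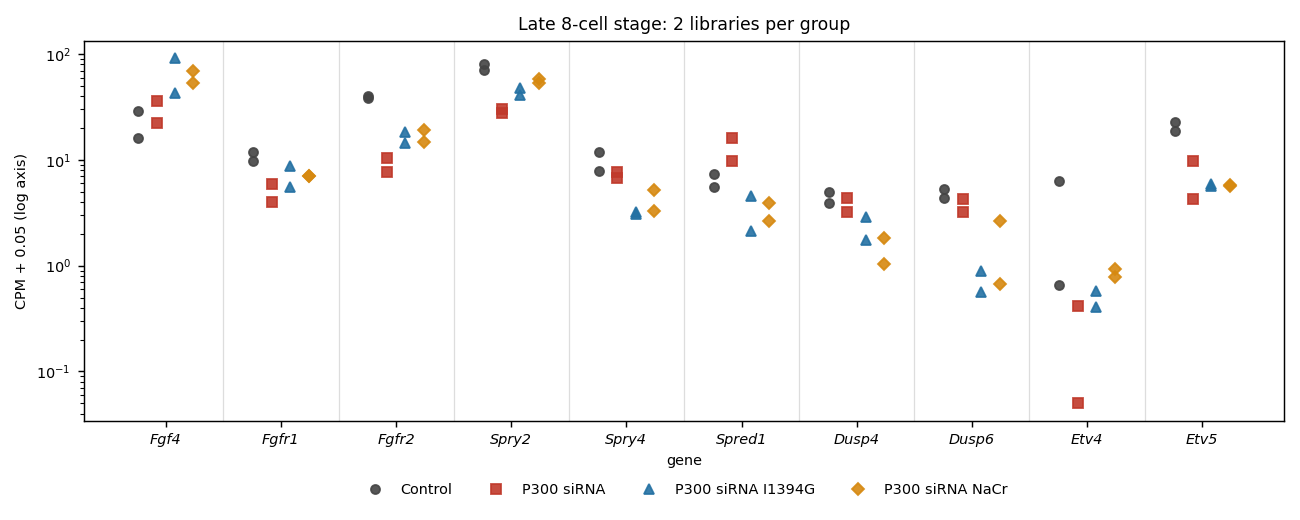
CPM + 0.05 on a log axis for each gene (horizontal axis) in the 8 late 8-cell libraries; grey circles are control, red squares P300 siRNA, blue triangles I1394G rescue and orange diamonds NaCr rescue. For Spry2 and Fgfr2 the rescue libraries lie between siRNA and control. For Spred1, Spry4, Dusp4 and Dusp6 they lie below both, and for Fgf4 above both.

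The levels of 6 epiblast and primitive endoderm genes on which FGF4 signalling is known to act are given beside the late 8-cell values. Nanog (epiblast) held 699 to 747 CPM in control, 67.7 to 86.0 under the siRNA, 403 to 406 with I1394G and 770.0 to 822 with NaCr. Gata6 (primitive endoderm) held 111 to 143, 22.1 to 22.3, 90.5 to 95.9 and 90.4 to 111 CPM in the same order. Both were lowest under the siRNA, but Nanog was highest with NaCr and Gata6 had its highest mean in control. None of the other 4 had its lowest mean under the siRNA. Gata4, another primitive endoderm factor, held 2.37 to 7.19 CPM in control, 4.78 to 11.9 under the siRNA, 10.1 to 14.8 with I1394G and 8.91 to 16.7 with NaCr. Pdgfra, a receptor of that lineage, lay between 0.746 and 4.19 CPM in the 8 libraries and Sox2, an epiblast factor, between 0 and 0.441 CPM. Sox17, a primitive endoderm factor, was at 0 in both controls, at 0.796 and 1.72 CPM under the siRNA and at most 0.306 CPM in the rescue libraries.

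The rest of the pathway was described by 4 lists holding 92 genes, of which 84 passed the filter. Under the siRNA 11 of the 84 rose and 8 fell at the 4-cell stage, where 15% of all genes were called. At the early 8-cell stage 11 rose and 9 fell, beside 16.5% of all genes, and without control replicate 2 it was 4 and 5, beside 7.51%. At the late 8-cell stage 12 rose and 4 fell, beside 28%. The medians of the 84 were 0.08, 0.18 and 0.42. Among other ERK targets and brakes, 6 of 34 rose and 2 fell at the 4-cell stage, 5 rose and 3 fell at the early 8-cell stage and 7 rose and 1 fell at the late 8-cell stage. In the cascade from receptor to ERK, 4 of 22 rose and 3 fell at the 4-cell stage, 3 rose and 3 fell at the early 8-cell stage, and 1 rose and 3 fell at the late 8-cell stage. Of 15 other FGF ligands 1 was called at the 4-cell stage, 3 at the early 8-cell stage and 2 at the late 8-cell stage, and of 13 other receptors and co-receptors 3, 3 and 2 were called.

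The genes described next are among the first of each direction by adjusted p. Ier3, which ERK induces, rose by 5.85 (SE 0.600) at the 4-cell stage, from a mean of 0.126 to 6.17 CPM, by 4.33 at the early 8-cell stage and by 2.33 at the late 8-cell stage. Myc, a growth regulator that is also an ERK target, fell by 3.27 (SE 0.452) at the 4-cell stage, from 47.1 to 4.90 CPM. Its log2 fold changes at the early and late 8-cell stages were -4.39 and -2.39. Ccnd1, which encodes cyclin D1, rose by 1.70 at the 4-cell and 1.75 at the early 8-cell stage. Of the ligands, Fgf1 fell by 1.98 at the 4-cell and 3.14 at the early 8-cell stage, from 40.7 to 4.63 CPM at the latter. Gpc4, a heparan sulphate co-receptor, fell by 2.19 and 2.62 at those stages, and Il17rd, a membrane inhibitor of FGF signalling, fell by 1.78 at the 4-cell stage. At the late 8-cell stage Sdc2 (syndecan 2) rose by 4.57 and Nf1, an inhibitor of RAS, by 2.12, while Map2k2 (MEK2) fell by 0.98. Each of these passed the test with adjusted p of at most 0.0249. Without control replicate 2 the early 8-cell values of Ier3, Myc, Ccnd1, Fgf1 and Gpc4 were 4.26, -4.26, 1.72, -2.75 and -2.73, all still called.

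In the rescue groups 1 of the 84 genes rose and 8 fell with I1394G against the siRNA, and 3 rose and 7 fell with NaCr, where 10.8% and 15.3% of all genes were called. Nf1 fell by 1.54 with I1394G and by 1.95 with NaCr, Elk4, an ETS factor of the serum response, by 1.04 and 1.76, and Shoc2, a RAF activator, by 1.45 and 1.23. Map2k2 rose by 1.07 and 0.84. Against control 2 genes rose with I1394G, Ier3 by 1.63 and Sdc2 by 3.15, beside 3.17% of all genes. With NaCr Ier3 rose by 1.91 and Fgf1 fell by 1.41, beside 1.57%.

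In controls 14 of the 84 genes in the 4 lists rose and 37 fell between the late 2-cell and 4-cell stages, where 61.2% of all genes were called. Of the 22 cascade genes 6 rose and 8 fell, and of the 34 other targets and brakes 1 rose and 19 fell. Mapk3 (ERK1) fell by 8.46, from 236 to 0.717 CPM, and Dusp7, which encodes another ERK phosphatase, fell by 7.07. Sos1, an activator of RAS, rose by 3.57. The step from the early to the late 8-cell stage brought 7 rises and 11 falls, where 26.2% of all genes were called, among them Myc at a log2 fold change of -1.97. Without control early 8-cell replicate 2 it was 3 and 10, beside 13.5%, and Myc was at -1.84 and called.

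The 10 groups were ranked by the mean level of each gene, and overlap between neighbouring groups was counted. With 2 libraries per group a gap between neighbours does not show a difference. The same count was not made over all genes, so the values describe the members only. For Fgf4 all 9 pairs of neighbouring groups overlapped, for Dusp4 and Etv4 8 of 9, and for Fgfr1 and Fgfr2 7 of 9. For Spry2, Spry4, Spred1 and Dusp6 it was 5 of 9, and for Etv5 4 of 9. The highest group was P300 siRNA 4-cell for Fgf4, control early 8-cell for Fgfr1, Fgfr2, Spred1 and Dusp6, and control 4-cell for Spry2. The group ranked next overlapped the highest for Fgf4 (P300 siRNA early 8-cell), Spry2 (control early 8-cell) and Dusp6 (P300 siRNA late 2-cell), but not for Fgfr1, Fgfr2 or Spred1. For Spry4, the control and siRNA late 2-cell groups ranked first and second and overlapped.

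The course over groups set the members apart from each other as well. Over the 10 group means of log2 CPM, the highest correlation between members, of 45 pairs, was r = 0.88 for Dusp4 with Dusp6, followed by 0.87 for Fgfr2 with Spry2 and 0.84 for Spry4 with Etv5 and 0.83 for Dusp6 with Etv5. Fgf4 ran opposite to Dusp4 (r = -0.90) and Dusp6 (-0.83). Outside the list, Fgfr2 was most like Bach1 (r = 0.98) and Spry2 most like Rad21 (0.98). Dusp6 was most like Fgf1 (0.97), Spred1 like Itgav (0.97), Spry4 like Kif14 (0.997) and Fgf4 like Rbck1 (0.92), among 11655 genes compared. These are descriptions over 10 groups that share stages and treatments, and the 3 most alike genes of each member were chosen by rank.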

How the data were processed

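RNA-seq libraries of mouse embryos were analysed from 2 tables. The authors deposited unnormalised counts for each gene, and FPKM values in a separate deposited table. Build mm9 is named in the submitters' processing notes, as are the tools HISAT2 2.2.1, Cufflinks 2.2, cutadapt 4.1 and bcl2fastq 2.20.0.422, with no role or order. A strand setting for the counting is not given in the sources used here, so a gene's reads cannot be told apart from those of an overlapping or antisense partner. Every column was matched to its sample by name. Replicates within a group correlated at 0.941 to 0.988 in log2 CPM, and no columns were copies.

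Counts were fitted in R 4.3.3 with edgeR 4.0.16, with the default low-count filter on groups, TMM factors and 1 coefficient per group over all 20 libraries (10 residual, 7.98 prior degrees of freedom). Contrasts were tested two-sided by the quasi-likelihood F test, with Benjamini-Hochberg adjustment over all 16603 genes. The SE is the fold change over the square root of F. Means, SD and exact intervals were computed here. The test script was tested on simulated data.

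The members, pathway lists, markers and motifs were chosen with earlier results of these data known. All 10 members are given in every group. Of the other pathway genes, those named come from the first 4 per direction and comparison by adjusted p with 5 CPM or more in the group that was higher, and likeness lists hold the 3 genes of highest r with at least 5 CPM in some group. Alternatives were DESeq2 size factors, the DESeq2 1.42.0 test, no filter, limma 3.58.1 on log2(FPKM + 1) or log2(FPKM + 0.1) with at least 1 FPKM in 2 libraries, only the compared libraries, a replicate block and leaving out each library. The limma fit without the FPKM column of control early 8-cell replicate 2, and the edgeR values of other pathway genes without that library, were added after seeing the data. Some genes that this rule names are not reported here.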

Additional observations from a re-analysis of the deposited data

Results flagged for a closer look

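The effect of the P300 siRNA on Spry2 differed between the 4 stages in the joint test of edgeR (adjusted p = 0.00682). Its log2 fold changes against control were -0.35, -2.57, -2.44 and -1.39 from the late 2-cell to the late 8-cell stage, and all 16 fits without 1 library kept the call (adjusted p from 0.000492 to 0.0291).

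For Spred1 the joint adjusted p was 0.0252, with log2 fold changes of 0.08, -0.58, -1.51 and 0.97. The call was lost in 8 of 16 fits without 1 library: control late 2-cell replicate 1 (adjusted p = 0.0508), control early 8-cell replicate 2 (0.0729), control late 8-cell replicates 1 (0.0572) and 2 (0.101), siRNA late 2-cell replicates 1 (0.0511) and 2 (0.0535), siRNA early 8-cell replicate 1 (0.0683) and siRNA late 8-cell replicate 1 (0.0684).

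For Etv5 the joint adjusted p was 0.0176, with log2 fold changes of 0.78, -1.41, -1.13 and -1.48. Each late 2-cell library left out removed the call, with adjusted p = 0.0838 and 0.0952 for the control replicates and 0.0603 and 0.0699 for the siRNA replicates, and no other library did.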

How the results depend on the processing

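No member reversed a called direction under any alternative run. Over the 10 members and 12 tests, the 34 calls lost 1 with DESeq2 size factors and 0 with the DESeq2 test or without the filter. When only the compared libraries were fitted, 33 of the calls could be compared and 6 were lost. The number of members called moved as follows. The share of all genes called in each alternative run is not given in this section, so these counts are not results about the members. With DESeq2 size factors it was 1 for NaCr against siRNA (2 in the report) and 5 for control 4-cell against late 2-cell (3). Without the filter it was 4 for I1394G against siRNA (2), 5 for each rescue against control (2), 1 for control early 8-cell against 4-cell (0) and 8 in the joint test (4). With only the compared libraries it was 1 at the late 2-cell stage (0), 1 at the 4-cell stage (6), and 7 for I1394G and 5 for NaCr against control (2 each).

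With limma on log2(FPKM + 1) the counts were 2 at the 4-cell stage, 0 at the early 8-cell stage, 1 for NaCr against siRNA, 1 and 0 for I1394G and NaCr against control, 2 for control late against early 8-cell and 2 in the joint test. With log2(FPKM + 0.1) they were 2, 0, then 1 at the late 8-cell stage, 0 and 0 for the rescues against control, 2 for control late against early 8-cell and 0 in the joint test. Of 33 calls 20 and 24 were lost on these scales. Leaving out the FPKM column of control early 8-cell replicate 2 gave 3 at the early 8-cell stage. The cause of the other losses was not tested.

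Leaving out 1 library gave 3 to 4 members at the 4-cell stage (3 without siRNA replicate 2), 3 to 6 at the early 8-cell stage (3 without control replicate 2), 2 to 4 at the late 8-cell stage and 0 to 0 at the late 2-cell stage. It gave 0 to 1 for I1394G and 0 to 1 for NaCr against siRNA, 0 to 1 and 0 to 0 against control, 3 to 6 for control 4-cell against late 2-cell (6 without control 4-cell replicate 1), 0 to 3 for control early 8-cell against 4-cell (3 without that library), 3 to 4 for control late against early 8-cell and 2 to 7 in the joint test. Of 28 member calls, leaving aside Dusp6 against control at the 4-cell and early 8-cell stages and the joint test, 11 were kept with every library left out in turn. Values without a call changed sign 20 times in these fits. The counts of members for the siRNA at the 4-cell and early 8-cell stages and in the joint test take in Dusp6, whose values at those stages are given without a test.

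Replicate numbers showed no general pairing of the libraries. The correlation of same-numbered deviations over 45 pairs of groups had a median of 0.008 and ranged from -0.063 to 0.418. At the upper end same-numbered libraries deviated alike, and whether they share a preparation was not tested. With a replicate block the member counts were 6, 6 and 3 at the 4-cell, early and late 8-cell stages, as without it; Etv4 in control late against early 8-cell lost its call (adjusted p = 0.0535) and Dusp6 in control 4-cell against late 2-cell gained one (adjusted p = 0.0258). DESeq2 size factors moved the median of all genes by 0.14 for siRNA against control at the late 8-cell stage and by -0.25 for control 4-cell against late 2-cell, and turned the share of higher calls for I1394G against siRNA from 57.5% to 45.3%. With them Spred1 at the late 8-cell stage (adjusted p = 0.0485) and Etv5 at the early 8-cell stage (0.0482) were called and Spry2 with NaCr was not (0.0745). Low counts limit Etv4, Dusp4 and, under the siRNA after the late 2-cell stage, Dusp6.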
